A study of Mus musculus with 2 samples.

Results

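The levels of 10 genes of the interleukin-1 family and the inflammasome were followed across the cells of RENCA kidney tumours: Il1a, Il1b, Il1rn, Il1r2, Il1rap, Il18, Il18bp, Nlrp3, Casp1 and Casp4. They were taken by symbol, and all 10 were found once among the 55357 genes of the deposited count matrix. RENCA is a mouse kidney cancer line, grafted here into the kidney of BALB/c mice. Of the 2 droplet single-cell RNA-seq libraries, 1 was labelled SMYD3 knockdown and 1 WT, so both labels share the graft line and the host strain and differ in the named genotype of the graft. The series text describes sorting on CD45, carried by leukocytes, whereas the sample records give the cell type as epithelial, and the number of mice behind each library is not given. With 1 library per label there is no replicate. Every interval below is at 95% and covers counting error alone, so the spread of mice or libraries is not in it, and no test between the labels was possible.

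Interleukin-1 alpha and interleukin-1 beta are inflammatory cytokines that signal through a receptor built from a ligand-binding chain and the accessory chain encoded by Il1rap. Il1rn encodes a secreted antagonist that occupies the receptor without signalling, and Il1r2 encodes a decoy receptor that binds the cytokine and does not signal. Pro-interleukin-1 beta and pro-interleukin-18 are made as inactive precursors and are cut by caspase-1 inside the inflammasome, a complex that the sensor NLRP3 can assemble, while caspase-4 (the mouse counterpart is also called caspase-11) responds to bacterial lipopolysaccharide in the cytosol. Transcript counts measure the precursor's messenger RNA and say nothing of cleavage or release. In tumours, myeloid cells are a common source of these transcripts.

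The promoters are shown first, and a link between their letters and the levels below was not tested. Each window holds the 250 bases before the RefSeq start, read 5′ to 3′ on the gene's strand (GRCm38.p6), and capitals mark a match to one of the motifs searched. The windows of Il1b (chr2:129371140-129371389, minus strand) and Il1a (chr2:129309973-129310222, minus strand) belong to cytokines that were both highest by CPM in neutrophil-like cells, at unlike levels. Il1b reached 13375 CPM there in the library labelled SMYD3 knockdown, whereas Il1a did not exceed 85.5 CPM in any class (CPM, defined below, is the share of a gene in the UMIs of the same cells). The windows of Il18 (chr9:50554450-50554699, plus strand) and Nlrp3 (the first of its 2 windows, chr11:59541319-59541568, plus strand) belong to a pair of genes whose levels ran against each other over the macrophage states.
Il1b: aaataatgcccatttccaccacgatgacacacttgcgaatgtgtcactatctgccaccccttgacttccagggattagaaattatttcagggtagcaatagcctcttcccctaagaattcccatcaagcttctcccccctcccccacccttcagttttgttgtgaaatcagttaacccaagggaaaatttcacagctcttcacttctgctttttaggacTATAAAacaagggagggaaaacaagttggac
Il1a: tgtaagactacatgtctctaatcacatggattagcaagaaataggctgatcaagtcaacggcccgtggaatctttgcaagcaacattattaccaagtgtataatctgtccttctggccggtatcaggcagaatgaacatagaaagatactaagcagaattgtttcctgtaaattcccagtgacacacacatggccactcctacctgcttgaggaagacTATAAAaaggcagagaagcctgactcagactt
Il18: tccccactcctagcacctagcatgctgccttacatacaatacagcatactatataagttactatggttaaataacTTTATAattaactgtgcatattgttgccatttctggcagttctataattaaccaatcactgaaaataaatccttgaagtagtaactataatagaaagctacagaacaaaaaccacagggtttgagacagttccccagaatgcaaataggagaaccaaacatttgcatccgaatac
Nlrp3: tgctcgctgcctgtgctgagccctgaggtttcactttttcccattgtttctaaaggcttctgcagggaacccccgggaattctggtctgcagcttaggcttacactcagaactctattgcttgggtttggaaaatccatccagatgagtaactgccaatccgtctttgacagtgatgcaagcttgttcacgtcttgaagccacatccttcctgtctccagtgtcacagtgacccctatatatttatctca
The letters TATAAA, the core of a TATA box, lay 31 to 26 bases before the start of Il1b and 32 to 27 bases before that of Il1a, on the gene's strand. In the Il18 window the same letters were found on the opposite strand, far from the start (170 to 175 bases before it). TATAAA was held by 12.4% of the 32851 windows of this length in the RefSeq table. Both strands of the windows of all 10 genes were also searched for TTGCNNAA (C/EBP, held by 9.56% of windows), AGGAAGT (PU.1, 7.69%), GGGA and TTCC parted by any 2 bases (NF-kappaB, 1.21%) and GAAA repeated after any 2 bases (interferon response, 2.98%). The only other match was TTGCGGAA, a C/EBP match, 49 to 42 bases before the start of Il18bp. A match is a string of letters and not a measured binding site, and a missing match speaks only for these letters in this window.

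On the genome (GRCm38, GENCODE vM21), Il1a (chromosome 2, 129299610 to 129309972, minus strand) and Il1b (chromosome 2, 129364570 to 129371139, minus strand) lie close together, and Il1rn (chromosome 2, 24336853 to 24351494, plus strand) lies elsewhere on the same chromosome. Casp1 (chromosome 9, 5298517 to 5307265) and Casp4 (chromosome 9, 5308828 to 5336783) are neighbours on the plus strand, and Il18 (chromosome 9, 50554827 to 50581840, plus strand) is on that chromosome too. Il1r2 is on chromosome 1 (40074079 to 40125231, plus strand) and Il1rap on chromosome 16 (26581704 to 26730117, plus strand). Il18bp is on chromosome 7 (102014885 to 102018690, minus strand) and Nlrp3 on chromosome 11 (59541568 to 59566956, plus strand). Of the 10 gene bodies, 6 overlap a gene on the opposite strand: Il1a, Il1b (with the antisense gene Il1bos), Il1r2, Il1rap, Il18 (with Bco2 and Tex12) and Il18bp (with Numa1). The sources used here do not say whether the counting used strand, so a part of the reads of these genes could come from the partner.

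After filtering, 8784 cells of the knockdown-labelled library and 8079 of the WT-labelled library were kept, with medians of 8665.5 and 9435 UMIs (unique molecules) per cell, and 22 barcode sequences occurred in both libraries. Cells were clustered without the 10 genes and without a wider pathway list, and the clusters were named from markers. Smyd3, the targeted gene, stood at 20.2 CPM (UMIs of a gene scaled to the summed UMIs of the same cells) in the 59 tumour-like cells of the knockdown-labelled library and at 16.6 CPM in the 122 of the WT-labelled library (29 and 40 UMIs, ratio 1.22, interval 0.727 to 2.01). Over all kept cells it stood at 10.1 and 9.02 CPM. The target thus was not measured lower in the knockdown-labelled library, and each direction below is drawn between the libraries as labelled. Values are given with the knockdown-labelled library first.

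Monocyte-macrophage-like cells (5784 and 5886) and neutrophil-like cells (2093 and 1286) made up most of both libraries, followed by dendritic-cell-like cells (334 and 427) and T-cell-like cells (100 and 131). Summed over the class, neutrophil-like cells had UMIs of all 8 neutrophil markers searched, at 59552 and 47472 CPM. Monocyte-macrophage-like cells had UMIs of all 12 of theirs, at 20454 and 21646 CPM. Counted as detected in at least 10% of a cluster's cells, neutrophil-like clusters had 6 or 7 of the 8. Monocyte-macrophage-like clusters had 10 to 12 of the 12. Neutrophil-like cells were shallow, with medians of 1337 and 1261 UMIs, whereas monocyte-macrophage-like cells held 11815 and 11298.5. A CPM is a share of a cell class's RNA, so CPM and molecules per cell can rank the classes differently.

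Il1b, the gene of interleukin-1 beta, was highest in neutrophil-like cells in both libraries. Neutrophil-like cells held it at 13375 CPM in the knockdown-labelled library and at 11430 CPM in the WT-labelled library. In monocyte-macrophage-like cells it stood at 557 and 619 CPM, and in dendritic-cell-like cells at 845 and 1020 CPM. The neutrophil level was thus 24.02 times (23.7 to 24.4) the monocyte-macrophage level in the first library and 18.5 times in the second. Counted per cell, the gap was smaller, with 18.6 and 15.0 UMIs per neutrophil-like cell against 7.06 and 7.47 per monocyte-macrophage-like cell. Tumour-like cells stood at 9.73 and 29.4 CPM on 14 and 71 UMIs.

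The antagonist, the decoy, the accessory receptor chain and the sensor were also highest in neutrophil-like cells by CPM. Il1rn stood at 976 and 950 CPM in neutrophil-like cells and at 130 and 128 CPM in monocyte-macrophage-like cells, a class ratio of 7.52 and 7.40. Per cell the order turned around, with 1.36 and 1.24 Il1rn UMIs per neutrophil-like cell and 1.64 and 1.55 per monocyte-macrophage-like cell. Il1r2 had the widest class gap of the 10 genes, at 727 and 698 CPM in neutrophil-like against 8.76 and 6.55 CPM in monocyte-macrophage-like cells (class ratios 83.0 and 107). Dendritic-cell-like cells came between them for Il1r2, at 104 and 52.5 CPM. Il1rap, the accessory receptor chain, stood at 298 and 330 CPM in neutrophil-like and 16.6 and 15.1 CPM in monocyte-macrophage-like cells. Nlrp3 stood at 674 and 798 CPM against 109 and 117 CPM. Per cell the order of Nlrp3 turned around too, with 0.939 and 1.05 UMIs per neutrophil-like cell and 1.38 and 1.41 per monocyte-macrophage-like cell.

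Il18 and Casp1 ran the other way, and Casp4, Il1a and Il18bp did not. Il18 stood at 38.2 and 34.6 CPM in monocyte-macrophage-like cells, and neutrophil-like cells held 0.288 and 0.343 times as much. Casp1, which encodes the protease that cuts both precursors, stood at 25.8 and 28.8 CPM in monocyte-macrophage-like cells and at 0.426 and 0.247 times that level in neutrophil-like cells, where it rested on 32 and 12 UMIs. Its neighbour Casp4 had the opposite order, with 125 and 122 CPM in neutrophil-like and 27.6 and 31.1 CPM in monocyte-macrophage-like cells. Tumour-like cells held Casp1 at 39.6 and 36.9 CPM and Casp4 at 37.5 and 43.5 CPM. Il1a stood at 85.4 and 85.5 CPM in neutrophil-like, 42.9 and 51.5 CPM in monocyte-macrophage-like and 12.95 and 11.5 CPM in dendritic-cell-like cells. Il18bp, a secreted protein that binds interleukin-18, stood at 20.6 and 13.1 CPM in neutrophil-like cells and at 6.21 and 6.94 CPM in monocyte-macrophage-like cells. Per cell, Casp4, Il1a and Il18bp had fewer UMIs in neutrophil-like than in monocyte-macrophage-like cells. Casp4 had 0.173 and 0.159 against 0.350 and 0.375 UMIs, and Il1a had 0.119 and 0.112 against 0.544 and 0.621. Il18bp had 0.0287 and 0.0171 against 0.0787 and 0.0838.

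**Figure D1:**
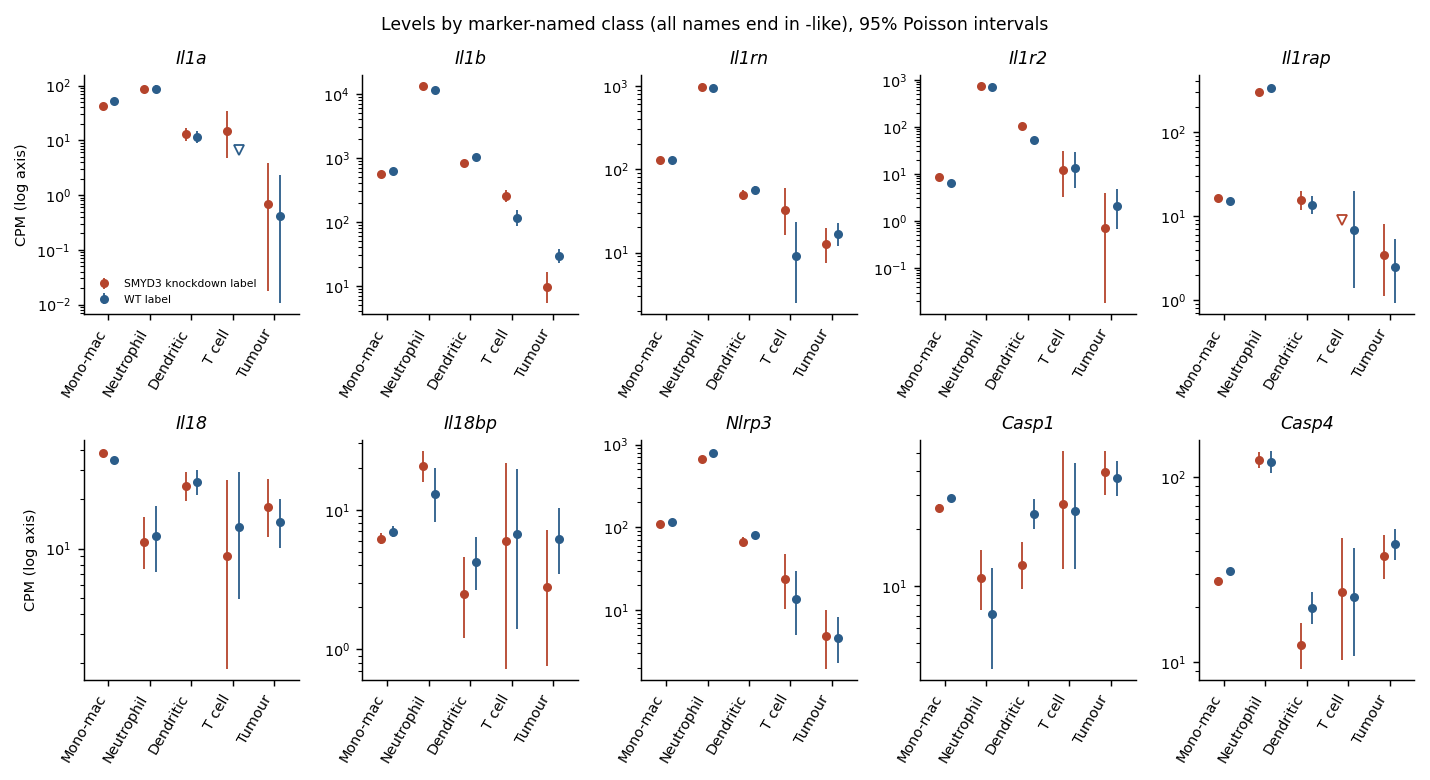
Levels of the 10 genes in CPM (log axis) in 5 marker-named classes, red for the knockdown-labelled library and blue for the WT-labelled library, with bars for exact 95% Poisson intervals. Il1b reached 13375 and 11430 CPM in neutrophil-like cells and 557 and 619 CPM in monocyte-macrophage-like cells, while Il18 and Casp1 were lower in neutrophil-like than in monocyte-macrophage-like cells.

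These levels and the class sizes together set where the molecules lay. In the knockdown-labelled library 46.5% of all Il1b UMIs were in neutrophil-like and 48.7% in monocyte-macrophage-like cells. The WT-labelled library had 28.01% and 64.0%. Neutrophil-like cells were 23.8% and 15.9% of kept cells and held 3.49% and 2.07% of all UMIs. They also held 66.2% and 60.8% of the Il1r2 UMIs and 40.1% and 32.3% of the Il1rap UMIs. Monocyte-macrophage-like cells were 65.8% and 72.9% of kept cells and held 87.7% and 87.1% of all UMIs. Above that share of all UMIs in both libraries were Il1a (90.1% and 94.6%), Il18 (92.6% and 92.2%) and Casp1 (91.5% and 88.9%). Below it in both were Casp4 (79.7% and 83.3%), Nlrp3 (77.4% and 82.2%) and Il1rn (75.0% and 82.3%). Il18bp (84.3% and 87.9%) lay below it in the knockdown-labelled library and near it in the other. The share of neutrophil-like cells in the libraries moves with these shares, and with 1 library per label it cannot be told apart from a difference between the labels.

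**Figure D2:**
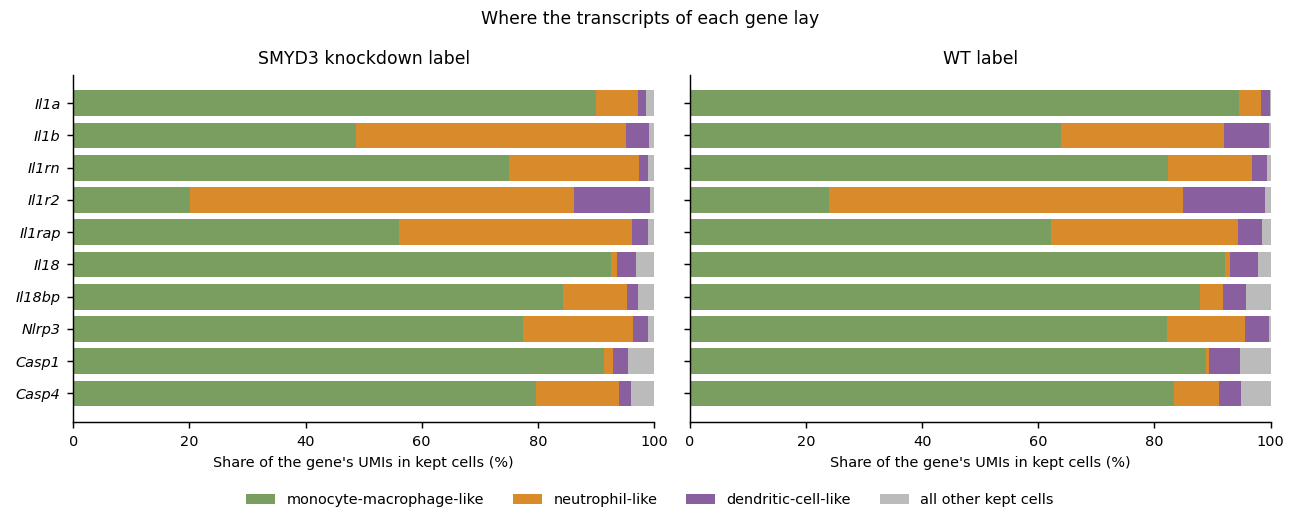
Share of each gene's UMIs in kept cells (%) by class, 1 panel per library and 1 bar per gene. For Il1b the neutrophil-like part of the bar is 46.5% in the knockdown-labelled library and 28.01% in the WT-labelled library, and for Il18 it is 1.06% and 0.750%.

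Myeloid transcripts also occurred in cells that should lack them. T-cell-like cells held 86 Il1b UMIs in 100 cells and 51 in 131 cells, in 9% and 9.16% of cells. Thinned to 1000 UMIs per cell, Il1b was seen in 5.10% and 3.94% of T-cell-like, 28.2% and 30.3% of monocyte-macrophage-like and 90.6% and 89.9% of neutrophil-like cells (unthinned, 56.2% and 60.6% of monocyte-macrophage-like cells). Thinning left out 422 and 320 neutrophil-like cells below that depth. Per UMI of S100a9, an abundant neutrophil transcript, Il1b had 0.442 and 0.487 UMIs in neutrophil-like cells, 1.13 and 0.810 in T-cell-like cells, and 13.2 and 19.0 in monocyte-macrophage-like cells. The part of free neutrophil RNA in the macrophage values was not tested. Casp1 was seen in 1.02% and 0.621% of thinned neutrophil-like cells against 2.04% and 3.94% of T-cell-like cells (2 and 5 cells). T-cell-like cells held Casp1 at 26.9 and 24.7 CPM, near the 25.8 and 28.8 CPM of monocyte-macrophage-like cells. Their share is therefore not a level of free RNA for Casp1. The neutrophil-like value rests on 32 and 12 UMIs and is not read as expression, and the part of free RNA in it was not tested.

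Within a class, Il1b was concentrated in part of the cells. The median monocyte-macrophage-like cell held 1 Il1b UMI in both libraries, 43.8% and 39.4% of these cells held none, and the 10% of cells with the most UMIs held 55.3% and 53.5% of the UMIs. Neutrophil-like cells were more even. Their median was 12 and 10 UMIs, 9.60% and 12.2% held none, and the top 10% held 34.4% and 33.9%. Il1a was sparser, with no UMI in 80.4% and 79.3% of monocyte-macrophage-like cells and 81.9% and 81.1% of its UMIs in the top 10%.

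The monocyte-macrophage-like cells fell into 11 clusters, called here by number and leading genes and given no type names. Il1b spanned 15.5-fold and 12.8-fold across them. The highest levels were in cluster 11 (Ly6c2, Lcn2, Plac8), at 1220 and 1283 CPM, and in cluster 3 (H2-DMb1, H2-Ea, H2-Eb1, class II antigen presentation genes), at 1181 and 1133 CPM. The lowest was in cluster 14 (Enpp2, Cyp26b1, Cd209d), at 78.5 and 100.1 CPM. Cluster 9 (Prg4, Cd5l, Alox15) came next in the knockdown-labelled library, at 98.7 CPM against 275 CPM in the other, where cluster 8 (Nusap1, Ube2c, Prc1, proliferation genes) was the next lowest at 261 CPM. Cluster 0 (Lyve1, Ednrb, Cd163), the largest in the WT-labelled library with 1386 cells, stood at 179 and 313 CPM. Cluster 1 (Igkc, Cx3cr1, Tmem176b), the largest in the knockdown-labelled library with 1201 cells, stood at 672 and 779 CPM. In cluster 11 neutrophil markers summed to 1453 and 2000 CPM, against 305 and 262 CPM over the class, and their part in its Il1b level was not tested.

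Nlrp3 ran with Il1b over these states and Il18 ran against both. Nlrp3 was highest in cluster 4 (Car4, Chil3, Wfdc21), at 176 and 208 CPM, and lowest in cluster 14, at 34.1 and 37.6 CPM. Il18 was highest in cluster 14, at 130 and 89.7 CPM, and lowest in cluster 3, at 9.57 and 8.39 CPM. Across the 22 points (11 clusters in each of 2 libraries) Pearson's r of log2 (CPM plus 5) was 0.86 for Il1b with Nlrp3, -0.56 for Il1b with Il18 and -0.77 for Il18 with Nlrp3. Il18 ran with its binding protein Il18bp (0.78) and with Casp4 (0.81). These points share 2 libraries and 1 clustering, and the values are descriptions.

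Il1rn, the antagonist, had another order. It was highest in cluster 15 (Rsad2, Ifit2, Ifit1, interferon-induced genes), at 307 and 242 CPM, and in cluster 2 (Il7r, Cxcl3, Gpnmb), at 290 and 289 CPM, and cluster 3 followed at 181 and 195 CPM. Cluster 14 (53.1 and 61.6 CPM), cluster 0 (54.6 and 44.3 CPM) and cluster 8 (58.9 and 43.9 CPM) were lowest. Il1b UMIs per Il1rn UMI therefore differed among states, at 1.19 and 1.31 in cluster 2 and 3.28 and 7.08 in cluster 0, beside 4.29 and 4.82 over the class. Cluster 15 also held the most Casp1 of the 11 clusters, at 70.5 and 68.5 CPM, and the most Il18bp, at 26.6 and 27.6 CPM. Casp4 was highest there in the knockdown-labelled library, at 76.0 against 50.2 CPM, whereas cluster 14 was highest in the WT-labelled one (50.4 and 60.8 CPM). The decoy Il1r2 and the receptor chain Il1rap were highest in cluster 11, at 64.3 and 50.8 CPM and at 55.3 and 60.3 CPM. Il1a was highest in cluster 1 in the knockdown-labelled library, at 77.3 CPM, and in clusters 9 and 1 in the WT-labelled one, at 91.3 and 88.2 CPM.

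The 3 neutrophil-like clusters differed in which gene led. Cluster 5 (Retnlg, Pi16, Mgst1; 880 and 465 cells) held the most Il1b, at 18456 and 15991 CPM, and the least Il1rn, at 743 and 628 CPM. Cluster 6 (Ciart, Hilpda, Fnip2; 802 and 484 cells) held Il1b at 9597 and 7342 CPM and the most Il1rn, at 1294 and 1263 CPM. Il1b UMIs per Il1rn UMI were 24.8 and 25.5 in cluster 5 and 7.41 and 5.81 in cluster 6. The decoy Il1r2 was highest in cluster 7 (Car2, AU020206, Scimp; 411 and 337 cells), at 1114 and 1068 CPM, then cluster 5, at 871 and 786 CPM, and lowest in cluster 6, at 346 and 317 CPM. Il1rap was highest in cluster 5 (414 and 451 CPM) and Nlrp3 likewise (797 and 982 CPM), with cluster 6 lowest for both (187 and 245 CPM, and 537 and 543 CPM). Casp4 differed little between clusters 5 and 6, at 139 and 140 CPM and at 138 and 132 CPM, and was lower in cluster 7, at 61.7 and 78.8 CPM.

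Among dendritic-cell-like cells, cluster 12 (Asgr2, Mmp12, Pilra) held Il1b at 1125 and 1457 CPM and Il1r2 at 172 and 84.4 CPM. Cluster 12 made up 55.1% and 54.1% of the class. It had 4 of the 10 dendritic markers detected and 1 of them among its 10 leading genes against other classes, so its name is weakly based. Cluster 16, led by Xcr1 and Clec9a, markers of cross-presenting dendritic cells, held Il1b at 365 and 363 CPM and Il1rn on 1 and 9 UMIs only. It was the higher of these clusters for Il18, at 49.8 and 45.1 CPM, and low for Nlrp3, at 20.5 and 40.0 CPM. Cluster 20 (Fscn1, Ccr7, Ccl5; 36 and 50 cells) was below the 50 cells set as a minimum in the knockdown-labelled library and is shown only in the plots.

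**Figure D3:**
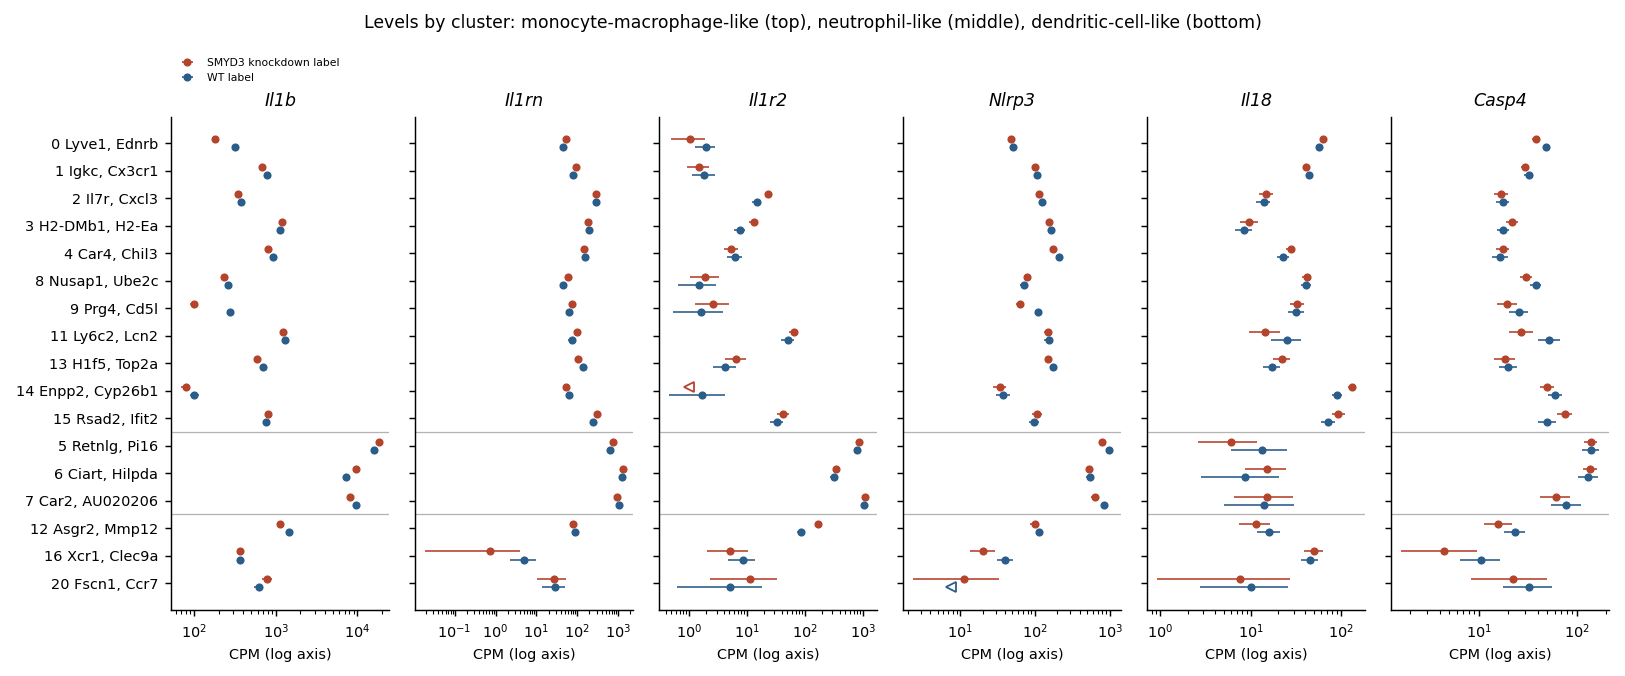
Levels in CPM (log axes) of 6 genes in 17 clusters called by number and leading genes, red for the knockdown-labelled library and blue for the WT-labelled library, with exact 95% Poisson intervals and open triangles where no UMI was found. Il1b is highest in clusters 5, 6 and 7 (neutrophil-like), Il1rn in cluster 6, and Il18 in cluster 14, where Il1b is at 78.5 and 100.1 CPM.

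Single cells were compared after thinning to 1000 UMIs. Among monocyte-macrophage-like cells with an Il1b UMI, 17.2% and 16.7% also had Nlrp3, against 8.48% and 7.56% of those without. For Il1a the shares were 6.70% and 7.75% against 2.21% and 2.35%, and for Il1rn 14.6% and 13.2% against 10.1% and 9.54%. The Il1rn order differed among clusters. It was the same in cluster 3, with 19.9% and 16.2% against 12.9% and 14.3%. In cluster 2 it was the other way, with 18.6% and 17.4% against 21.9% and 22.6%. In neutrophil-like cells Nlrp3 was seen in 42.9% and 49.2% of cells with Il1b and in 18.5% and 27.6% of those without, and Il1r2 in 45.0% and 47.2% against 24.8% and 26.5%. Il1rn in neutrophil-like cells was not seen more often beside Il1b, with 48.2% and 44.9% against 49.7% and 55.1%. In cluster 15 Il1rn was seen in 53.6% and 42.1% of cells with Il1b and in 23.1% and 21.7% of those without. In the same cluster Il1r2, the gene with the widest gap toward neutrophil-like cells, was seen in 23.2% and 19.3% against 1.92% and 1.74%, and neutrophil markers summed to 1280 and 786 CPM. The part of neutrophil RNA in these shares was not tested. The cells of a library share its free RNA and its depth, so these shares are descriptions.

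The genes whose levels ran most like each of 5 members were found over 34 points, which are 17 clusters or classes in each of 2 libraries, among 6804 genes. For Il1b they were Pfkfb4 (Pearson's r 0.95), Nlrp3 (0.95) and Ier5 (0.94), and for Nlrp3 they were Clec4e (0.97), Irak3 (0.96) and Cd33 (0.96). Il1rn ran most like Ptgs2 (0.95), Cd300lf (0.95) and Arg2 (0.94), and Il1r2 most like Med13l (0.94), Ifitm1 (0.94) and Mxd1 (0.93). Il18 ran most like Dcxr (0.90), Gm4951 (0.88) and Fcgrt (0.88). The points share depth and library, and neutrophil-like clusters stand far from the others.

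Between the libraries, the 10 genes differed little in monocyte-macrophage-like cells. Of the 8 that passed a filter of at least 20 UMIs over both libraries and 10 CPM in either, 0 were at least 1.5-fold apart, and 1.52% of the 7901 genes that passed it were (0.405% higher and 1.11% lower in the knockdown-labelled library). Il1b stood at 557 against 619 CPM, a ratio of 0.899 (0.887 to 0.911), and Il1a at 42.9 against 51.5 CPM, a ratio of 0.834 (0.795 to 0.875). With each cell weighing the same, the Il1b ratio was 1.005, on the other side of 1, so its direction depends on how cells are weighted. Nlrp3 had a ratio of 0.936 (0.907 to 0.965), which also turned, to 1.01 with equal weights and 1.05 in thinned cells. Casp1 (0.894, 0.840 to 0.952) and Casp4 (0.888, 0.835 to 0.943) were below 1 as well. Il18 had a ratio of 1.10 (1.04 to 1.16) and Il1rap of 1.10 (1.01 to 1.19), the latter 0.962 where cells were assigned by a gate on their own marker UMIs. Il1rn held 1 in its interval, at 1.01 (0.981 to 1.04). Il1r2 and Il18bp lay under the filter, with ratios of 1.34 (1.18 to 1.51) and 0.894 (0.785 to 1.02), and by the gate Il1r2 had a ratio of 0.885. The median log2 (CPM plus 5) difference was -0.11 over the 8 genes and -0.02 over all that passed.

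In neutrophil-like cells Il1b was on the other side of 1, at 13375 against 11430 CPM, a ratio of 1.17 (1.15 to 1.19). Nlrp3 stood at 674 against 798 CPM, a ratio of 0.845 (0.788 to 0.906), lower in the knockdown-labelled library as in the sums over monocyte-macrophage-like cells. The intervals of the other 8 genes held 1, among them Il1a (0.999, 0.811 to 1.24), Il1rn (1.03, 0.966 to 1.09), Il1r2 (1.04, 0.969 to 1.12), Il1rap (0.903, 0.811 to 1.01), Il18 (0.925, 0.513 to 1.71) and Casp4 (1.02, 0.860 to 1.22). All 10 passed the filter and 2 were at least 1.5-fold apart, Il18bp (1.58, 0.953 to 2.70, on 60 and 22 UMIs) and Casp1 (1.54, 0.773 to 3.29, on 32 and 12 UMIs, not read as expression), while 14% of the 6122 genes that passed were. Both had the higher level under the knockdown label, the direction of 3.66% of all genes that passed, while 10.4% were lower by that fold. The median difference was 0.04 over the 10 genes and -0.09 over all that passed.

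Other transcripts moved in these neutrophil-like cells as well. Neutrophil markers summed to 59552 and 47472 CPM (ratio 1.254, 8 of 8 with UMIs in both), macrophage markers to 3122 and 4108 CPM (0.760, 12 of 12 with UMIs) and pancreatic enzymes to 2833 and 11.3 CPM. The 1.17 of Il1b is thus below the 1.254 of the neutrophil markers in the same cells. The mitochondrial genome genes summed to 15175 and 19850 CPM (0.764), with ratios of 0.768, 0.7998 and 0.763 in clusters 5, 6 and 7. A list of 19 handling stress genes had a median of 0.23, with 14 above 0. The part of these transcripts in the Il1b ratio was not tested. Among the clusters, Il1b had ratios of 1.15 (1.13 to 1.18) in cluster 5, 1.31 (1.26 to 1.36) in cluster 6 and 0.835 (0.7996 to 0.871) in cluster 7, and cluster 5 held 42.0% and 36.2% of the class, cluster 6 38.3% and 37.6% and cluster 7 19.6% and 26.2%. Nlrp3 had ratios of 0.812 in cluster 5 and 0.749 in cluster 7 and stood at 537 against 543 CPM in cluster 6.

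In dendritic-cell-like cells 9 of the 10 genes passed the filter and 3 were at least 1.5-fold apart, while 5.45% of the 8077 genes that passed were. Il1r2 was higher in the knockdown-labelled library, at 104 against 52.5 CPM (419 and 273 UMIs, ratio 1.99, 1.70 to 2.33), and 1.83% of all genes were called in that direction. In cluster 12 it stood at 172 against 84.4 CPM (2.03, 1.73 to 2.39). Casp1 stood at 12.95 against 24.02 CPM (0.539, 0.382 to 0.751, on 52 and 125 UMIs) and Casp4 at 12.45 against 19.8 CPM (0.629, 0.440 to 0.890, on 50 and 103 UMIs), and 3.62% of all genes were called in that direction. In thinned cells the Casp1 ratio was 1.10 (6 and 7 cells with a UMI) and the Casp4 ratio 0.098 (1 and 13 cells), too few to set a direction for either. Il1b had a ratio of 0.828 (0.793 to 0.864), Nlrp3 of 0.836 (0.715 to 0.977; 1.01 by the gate and 0.559 in thinned cells) and Il1rn of 0.867 (0.721 to 1.04). Il1a (1.12), Il1rap (1.13) and Il18 (0.952) held 1 in their intervals, and Il18bp rested on 10 and 22 UMIs. In the same cells macrophage markers summed to 1430 and 1942 CPM (0.736, 12 of 12 with UMIs in both), and markers of plasmacytoid dendritic cells to 16.4 and 91.5 CPM. Their part in these ratios was not tested.

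**Figure D4:**
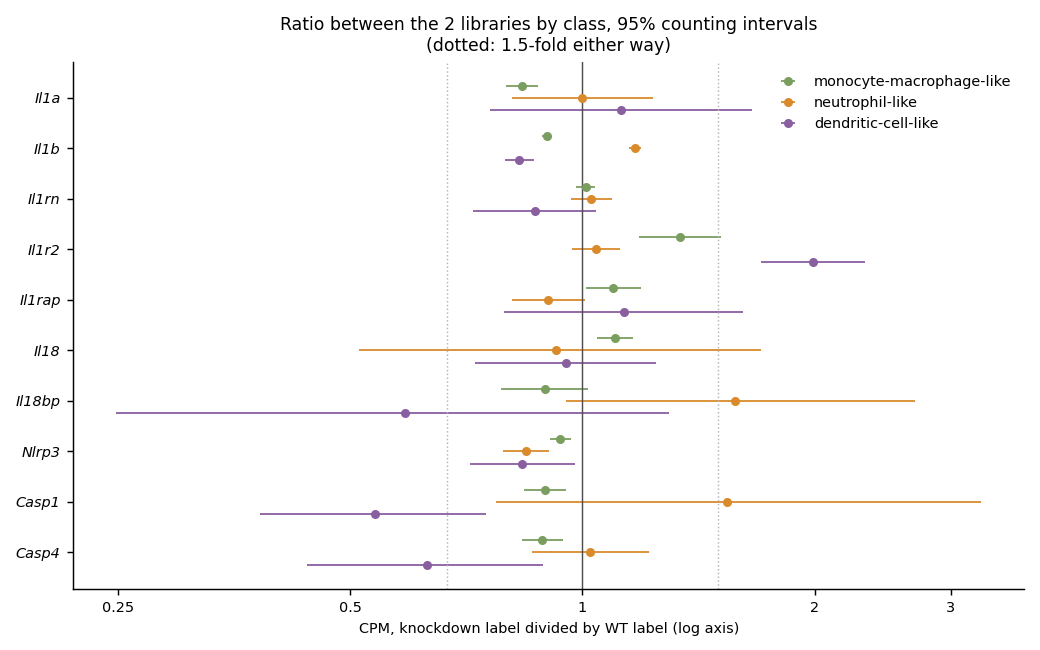
Ratio of CPM, knockdown-labelled divided by WT-labelled library (log axis), for the 10 genes in 3 classes, with exact 95% conditional binomial intervals for counting error. Il1b is at 0.899 in monocyte-macrophage-like, 0.828 in dendritic-cell-like and 1.17 in neutrophil-like cells, and Il1r2 is at 1.99 in dendritic-cell-like cells.

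The monocyte-macrophage-like average hid unlike states. For Il1b the interval lay below 1 in 8 of 11 clusters, above it in 1 and held it in 2. The lowest ratios were in cluster 9, at 0.359 (0.317 to 0.406), and cluster 0, at 0.571 (0.540 to 0.603), and the one above 1 was cluster 3, at 1.04 (1.01 to 1.07). Cluster 0 was 15.1% and 23.5% of the class and was made up differently in the 2 libraries. At a clustering resolution of 2, a split chosen after seeing the data, 56.3% and 52.5% of its cells were in subcluster 0, where Il1b stood at 146 against 246 CPM (0.594, 0.548 to 0.643). Subcluster 15 held 12.2% and 32.5% of them, with Il1b at 388 against 401 CPM (0.968, 0.869 to 1.08), and subcluster 27 held 17.1% and 1.23%, with Il1b at 89.2 CPM and on 3 UMIs. The ratio of cluster 0 thus covers unlike mixes of cells. Cluster 9 fell mainly into subclusters 21 and 7, with Il1b ratios of 0.339 (0.288 to 0.398) and 0.293 (0.228 to 0.374). In cluster 8 the ratio of 0.888 turned to 1.04 in thinned cells. Cluster 9 also had low ratios for Il1a (0.435, at 39.7 against 91.3 CPM) and Nlrp3 (0.571, at 63.2 against 110.6 CPM), and Il1b UMIs per Il1rn UMI stood at 1.35 and 4.43 there. Il1a had an interval below 1 in 8 clusters, above in 1 and around 1 in 2, with 0.473 in cluster 13 (H1f5, Top2a, H2ac24), 0.602 in cluster 4 and 0.605 in cluster 15. In thinned cells the Il1a ratio was 1.08 in cluster 1 and 1.18 in cluster 3, the other side of 1 from the sums.

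The antagonist Il1rn went the other way in part of the states, with an interval above 1 in 5 clusters, below in 2 and around 1 in 4. Nlrp3 had no interval above 1, 4 below and 7 around 1. Il18 had an interval above 1 in clusters 14 (1.45, at 130 against 89.7 CPM), 15 (1.30, at 92.7 against 71.2 CPM) and 4 (1.22) and below 1 in none. Il1r2 had ratios of 1.58 in cluster 2 (23.5 against 14.8 CPM) and 1.73 in cluster 3 (13.1 against 7.55 CPM), where neutrophil markers summed to 602 against 472 CPM (1.28) and to 201 against 155 CPM (1.30). Casp4 stood at 76.0 against 50.2 CPM in cluster 15 (1.51, but 0.776 in thinned cells) and at 27.4 against 52.5 CPM in cluster 11 (0.521). Neutrophil markers summed to 1280 and 786 CPM in cluster 15 and 1453 and 2000 CPM in cluster 11. The part of neutrophil RNA in these ratios was not tested.

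Genes listed here as handling stress genes, such as Fos and Jun, were compared with the Il1b ratios over the monocyte-macrophage-like clusters. Whether handling or another process set their levels was not tested. Their sum was lower in the knockdown-labelled library in 11 of 11 monocyte-macrophage-like clusters, with ratios from 0.660 in cluster 9 to 0.989, and 0.695 in cluster 0. Over the 11 clusters the log2 ratio of Il1b had a Pearson's r of 0.84 with that of the stress sum, and of 0.60 over the 9 clusters without 0 and 9. For Il1a it was 0.05, or -0.50 without those 2 clusters, and for Il1rn -0.31, or -0.14 without them. For Nlrp3 it was 0.47, or -0.20 without them. In the neutrophil-like clusters the stress sum had ratios of 1.05, 1.26 and 1.11 in clusters 5, 6 and 7, where Il1b had 1.15, 1.31 and 0.835, so cluster 7 went the other way. The clusters share 2 libraries, and the part of handling in the Il1b ratios was not tested.

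**Figure D5:**
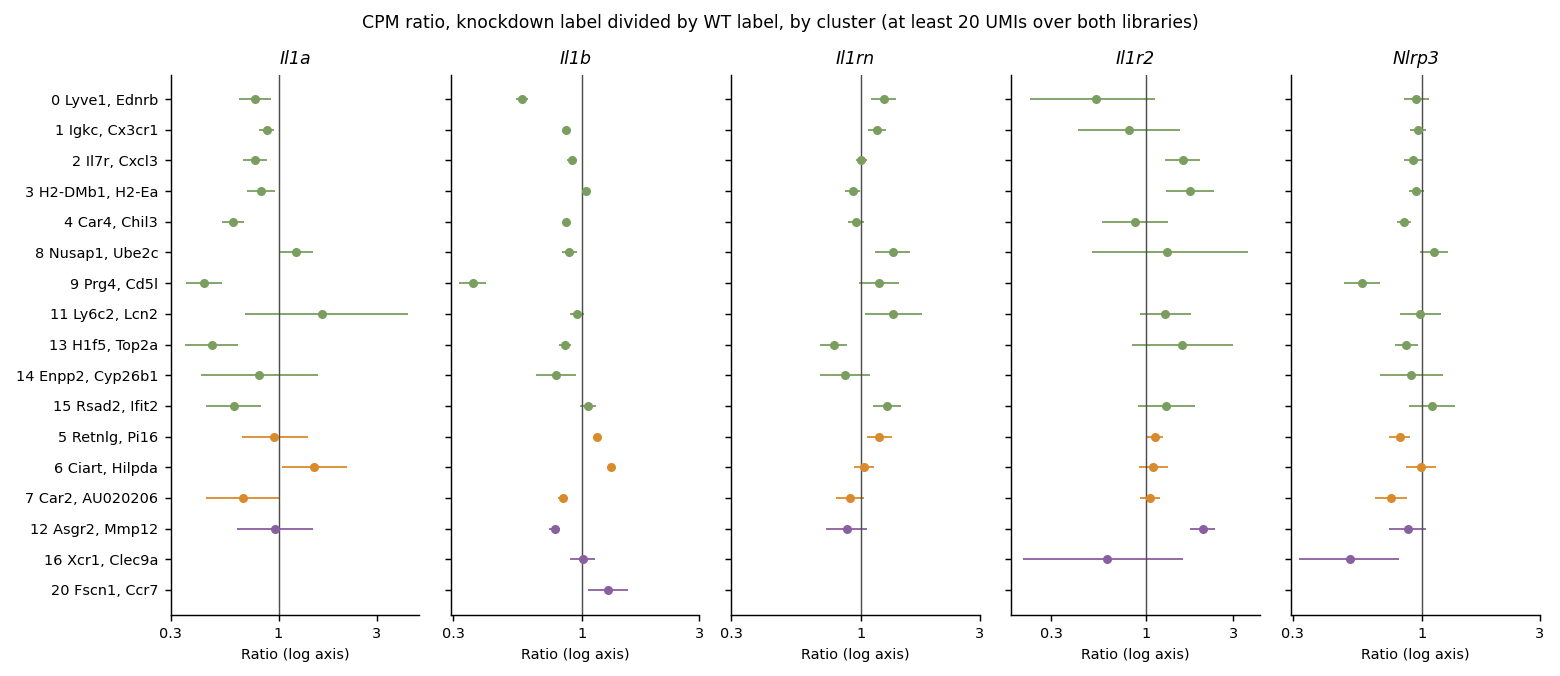
Ratio of CPM between the libraries (SMYD3 knockdown label divided by WT label, log axes) for 5 genes by cluster, with exact 95% intervals for counting error, green for monocyte-macrophage-like, orange for neutrophil-like and purple for dendritic-cell-like clusters. For Il1b, clusters 9 (0.359) and 0 (0.571) lie farthest below 1 and cluster 6 (1.31) lies above it.

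Of the wider pathway list, 64 of 65 genes were found. In monocyte-macrophage-like cells 33 passed the filter, 0 were at least 1.5-fold higher and 1 was lower, Serpinb1a, a protease inhibitor (11.9 against 17.9 CPM, ratio 0.666). The next largest ratios were those of the interleukin-36 receptor Il1rl2 (1.34), the NF-kappaB inhibitor Tnfaip3 (0.785) and the guanylate-binding protein gene Gbp2b (0.790). Of all 7901 genes that passed in this class, 0.405% were higher and 1.11% lower by that fold. In neutrophil-like cells 38 passed, and 2 were higher, Gbp2 (1.53, 0.900 to 2.70, on 53 and 20 UMIs) and Serpinb1a (1.51, 1.02 to 2.28). The interval of Gbp2 thus held 1. Another 2 were lower, the pyrin gene Mefv (53.5 against 91.4 CPM, 0.585, 0.466 to 0.736) and the receptor kinase gene Irak4 (0.634, 0.427 to 0.941). Of all 6122 genes that passed in this class, 3.66% were higher and 10.4% lower by that fold. In dendritic-cell-like cells 32 passed, 0 were higher and 2 were lower, Irak2 (20.7 against 36.7 CPM, 0.563, 0.430 to 0.732) and Gbp5 (0.639, 0.476 to 0.852). Gsdme (0.699, 0.447 to 1.08) and Gbp2b (0.781, 0.598 to 1.02) came next, and their intervals held 1. Of all 8077 genes that passed in this class, 1.83% were higher and 3.62% lower by that fold. The list's median differences were -0.07, -0.03 and -0.07, near the -0.02, -0.09 and -0.03 of all genes that passed.

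The partners of the 10 genes, picked here for their roles after their values were seen, lay in different classes. Il1r1, the signalling receptor for both interleukin-1 cytokines, stood at 27.8 and 26.1 CPM in tumour-like cells and at 1.20 and 1.20 CPM in monocyte-macrophage-like cells. Il18r1, the binding chain of the interleukin-18 receptor, stood at 236 and 234 CPM in T-cell-like cells and at 260 and 291 CPM in the 22 and 41 NK-cell-like cells. Il18rap, its accessory chain, stood at 258 and 318 CPM in neutrophil-like cells, where Il18r1 stood at 17.8 and 20.8 CPM. Il36g, another cytokine of the family, stood at 393 and 380 CPM in neutrophil-like cells and at 0.941 and 0.676 CPM in monocyte-macrophage-like cells. Pycard, the adaptor that links sensors to caspase-1, stood at 301 and 268 CPM in monocyte-macrophage-like and 83.4 and 80.7 CPM in neutrophil-like cells. Gsdmd, whose cleaved product forms the membrane pore, stood at 31.6 and 30.3 CPM and at 28.1 and 23.2 CPM in these classes.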

How the data were processed

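Single cells of RENCA tumours were profiled in 1 library per label. The authors deposited whole UMI counts per gene and cell, made with Cell Ranger 7.1.0 per the file headers, and the submitters' processing notes name the build mm10. The annotation release, strand setting and any depth equalising are not given in the sources used here. Barcodes were matched to libraries through the deposited cell table, which names the sample of each barcode.

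Barcodes under 200 genes or 500 UMIs, or over 20% mitochondrial UMIs, were dropped. The Scrublet caller marked 0 cells, so the top-scoring 0.8% per 1000 cells were taken out (723 and 603 cells). After scaling each cell to 10000 and a log transform, 2000 variable genes, without the members and the pathway list, gave 30 principal components, 15 neighbours and 25 Leiden clusters at resolution 1 (scanpy 1.11.5, leidenalg 0.10.2, Python 3.11.15). Names came from 15 marker lists, needed 3 detected markers and end in "-like". The scoring of names was changed after seeing the data. A cluster led by haemoglobin genes stayed unnamed.

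UMIs were summed per library and class or cluster, and divided by the total to give CPM. Intervals are exact at 95%: Poisson for sums, Clopper-Pearson for shares, conditional binomial for ratios. They cover counting error only, and a count of 0 allows up to 3 UMIs. Cells are not replicates, so no p-value was computed. The ratio intervals and the 1.5-fold call were tested on simulated Poisson sums, the model that the intervals assume. A fold of 1.5 counts as called. The members were named in every class, up to 4 pathway genes per class by size of ratio, and 3 genes with the most alike levels for each of 5 members, among genes of at least 50 CPM. Promoters are from RefSeq, where all 10 members matched. The members and lists were chosen with earlier results of these data known. Alternatives covered scaling, weighting, thinning, filters, doublets, clustering and gating.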

Additional observations from a re-analysis of the deposited data

Results flagged for a closer look

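Il1b was the only member whose ratio between the libraries lay, beyond counting error, on opposite sides of 1 in 2 of the 3 classes compared or in 2 neutrophil-like clusters. The ratio was 0.899 in monocyte-macrophage-like and 1.17 in neutrophil-like cells, and the dendritic-cell-like ratio of 0.828 also stood against the 1.17 of neutrophil-like cells. Within neutrophil-like cells, cluster 5 (1.15) and cluster 6 (1.31) stood against cluster 7 (0.835). Il1b also had the most UMIs of the members in each of the 3 classes, and so the narrowest intervals. In neutrophil-like cells it had 38985 and 19255 UMIs, against 2846 and 1601 for Il1rn, the next. A gene with more UMIs meets the rule more easily. The share of all genes that met the rule was not counted, so the rule does not set Il1b apart from other deeply counted genes. The 11 monocyte-macrophage-like clusters were outside this rule. Among them Il1b (1 above 1, 8 below), Il1a (1 and 8), Il1rn (5 and 2) and Casp4 (2 and 3) had intervals on both sides of 1. With 1 library per label these differences were not tested, and the monocyte-macrophage-like ratio reached 1.00 with each cell weighing the same.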

How the results depend on the processing

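No paired analysis was possible because each label has 1 library. For the same reason no library could be left out. In monocyte-macrophage-like cells the count of members at least 1.5-fold apart was 0 in all alternatives but one, 1 (Il1r2) with each cell weighing the same. In neutrophil-like cells it went from 2 to 0 at 100 UMIs and 50 CPM, on log2 (CPM plus 5), at a fold of 2 and at resolution 2, and to 1 (Il18bp) at 10% mitochondrial UMIs, at 1000 UMIs per cell, without doublet removal, with the members in the clustering and by the gate. In dendritic-cell-like cells it went from 3 to 1 (Il1r2) at 100 UMIs and 50 CPM and by the gate, and to 0 at a fold of 2. The causes were not tested.

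Among ratios whose counting interval left out 1, those that turned to the other side of 1 were, with each cell weighing the same, Il1b (1.00) and Nlrp3 (1.01) in monocyte-macrophage-like cells and Il1a in cluster 1 (1.00). By the gate they were Il1r2 (0.885) and Il1rap (0.962) in monocyte-macrophage-like and Nlrp3 (1.01) in dendritic-cell-like cells. Thinned to 1000 UMIs they were Nlrp3 in monocyte-macrophage-like (1.05), Casp1 in dendritic-cell-like (1.10), Il1a (1.08) and Il1rn (0.941) in cluster 1, Nlrp3 in cluster 2 (1.138), Il1a (1.18) and Il1rn (1.06) in cluster 3, Il1b (1.04) and Casp1 (1.53) in cluster 8, and Casp4 in cluster 15 (0.776). Ratios whose interval held 1 crossed it too, in thinned cells Il1a (0.213), Il1rap (0.799) and Il18 (1.60) in dendritic-cell-like and Il18 (1.41) and Casp4 (0.965) in neutrophil-like cells. Over 300 class and 775 cluster values under alternatives, 265 and 701 moved by less than the counting interval. This share differed by alternative. In thinned cells it was 14 of 30 class and 69 of 125 cluster values. At resolution 2 and at 10% mitochondrial UMIs it was 30 of 30 class values. Depth limits Casp1, Il18 and Il18bp in neutrophil-like cells, which rest on 12 to 60 UMIs.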
